A study of Mus musculus with 9 samples.

Results

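The nuclear genes of respiratory complexes I, II and III and of ATP synthase (complex V) were compared between beating and non-beating cells grown from mouse adipose tissue. Members were the genes whose single array symbol begins with Ndufa, Ndufb, Ndufc, Ndufs, Ndufv, Sdha, Sdhb, Sdhc, Sdhd, Uqcr or Atp5, leaving out Ndufaf assembly factors and numbered pseudogenes. The rule gave 69 genes, measured by 91 transcript clusters (probe groups that each read 1 gene or a stretch of it), of 19938 genes with a cluster of 1 symbol. They comprised 36 Nduf genes, 4 subunits of complex II, 8 of complex III, 17 of complex V and 4 complex II assembly factors (Sdhaf1 to Sdhaf4) that share the Sdha prefix. The Nduf genes include Ndufa4, which is now counted as a subunit of complex IV, and its paralogue Ndufa4l2. Both are grouped with complex I in the figures and in medians by complex, but not with its core or accessory subunits. A further 3 clusters, of Ndufs5 or Ndufb4 together with a near copy, carry several symbols and were not used.

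Stromal vascular fraction (SVF) cells, the non-adipocyte cells released by digesting fat, came from subcutaneous adipose tissue of C57BL6/J mice aged 10 weeks and grew on uncoated plates in serum-containing medium with no inducing agent. On day 28 the spontaneously beating colonies were picked by hand as the beating group, each sample combining the colonies of several dishes from 1 lot of SVF, and the cells left behind formed the non-beating group, with 4 arrays each. On day 14, 6 round cells were picked and pooled as the round group, with 1 array and thus no replicate. Values are log2 signals of Affymetrix Mouse Gene 1.0 ST arrays, and a difference of 1 is a doubling of the signal, background included. Array medians lay between 3.08 and 3.17 on the 8 beating and non-beating arrays and at 3.54 in the round pool. The mean of 8 skeletal muscle markers lay between 9.59 and 9.92 on beating arrays, between 3.72 and 4.38 on non-beating arrays and at 10.1 in the round pool. The mean of 13 macrophage markers was 3.49, 4.20, 4.44 and 5.41 on beating arrays 1 to 4 and 5.43 to 7.00 on non-beating arrays, so the beating arrays differed in this list among themselves.

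Complex I takes electrons from NADH, complex II takes them from succinate, and complex III passes them from ubiquinol to cytochrome c. The proton gradient built along the chain drives ATP synthase, a rotary enzyme with a catalytic F1 head, a stalk and a membrane part that holds a ring of c subunits. Muscle, and heart muscle above all, relies on this machinery, and most of its genes are transcribed in every cell with mitochondria. The promoters of many are known to bind NRF1, the ETS-family factor GABP, YY1 and the oestrogen-related receptors (ERR).

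Promoter sequence was found for 59 of the 69 genes in RefSeq (GRCm38.p6), from 250 bases before to 50 after each start, and was searched on both strands. The NRF1 letters GCGCNTGCG occurred in 24 of the 59 (40.7%), against 9.68% of 17492 protein-coding genes and 7.12% of all 27025 genes. The ETS core CCGGAAG occurred in 28.8% of members and 12.9% of protein-coding genes (9.93% of all genes), and the ERR element AAGGTCA in 11.9% and 4.73% (5.38% of all). The YY1 letters AAGATGGCG occurred in 11.9% of members and 2.14% of protein-coding genes (1.64% of all). The muscle E-box CAGCTG occurred in 8.47% of members and 17.4% of protein-coding genes (18.3% of all), and the MEF2 core TANNNNTAG in 10.2% and 21.7% (23.5% of all). No motif contains another, but NRF1 matches can lie on both strands of nearly the same bases. A match describes the sequence and does not show that a factor binds there. Of the 5 genes that passed the test between the groups, Ndufs1 had no promoter sequence here. The promoter of Uqcrfs1 held no NRF1, ETS, ERR or YY1 match. The windows that follow show matches in the other 3 (Ndufa5, Ndufa6, Ndufs4) and in other members described in the text. Each complex has at least 1 window, and the matched letters are in capitals.
Ndufa5, NRF1, chr6:24527697-24527725, minus strand: gtgtgagctgCGCAGGCGCaaatctacct
Ndufa6, NRF1, chr15:82354250-82354278, minus strand: ccgtggcaccGCGCGTGCGcacgctgaag
Ndufs4, YY1, chr13:114388045-114388069, minus strand: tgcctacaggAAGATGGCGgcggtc
Ndufs7, YY1, chr10:80249463-80249491, plus strand: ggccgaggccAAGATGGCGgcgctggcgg
Sdhb, ETS, chr4:140961267-140961293, plus strand: ctcggagaaaCCGGAAGcggccttcca
Uqcrh, ETS, chr4:116075064-116075090, minus strand: gtatgccgcaCTTCCGGccaggtcgcc
Uqcr10, NRF1, chr11:4704325-4704353, minus strand: ttgggttctaCGCAAGCGCagtggcgcga
Atp5g2, NRF1, chr15:102671071-102671099, minus strand: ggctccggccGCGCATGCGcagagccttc
Atp5g3, ERR, chr2:73911362-73911388, minus strand: tgttacaaagTGACCTTgagcgtcttc

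**Figure D1:**
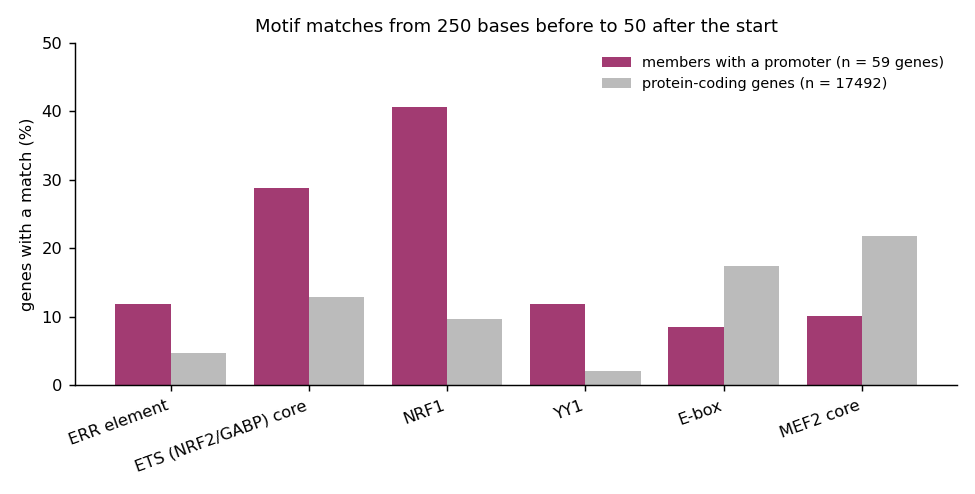
Share of genes (%) with at least 1 match to each motif, in the 59 members with a promoter in RefSeq and in 17492 protein-coding genes. The NRF1 bars stand at 40.7% and 9.68%, and the E-box and MEF2 bars are lower for the members.

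Respiratory genes were mostly slightly higher in the beating group, and few passed the test alone. Of the 69 members, 61 had a higher mean in beating than in non-beating cells, with a median difference of 0.21 on the log2 scale. Over all 33323 clusters the median difference was 0.01, and 51.9% were positive. The members are bright, 65 of them among the brightest 25% of clusters by mean level, and in that brightest part the median difference was -0.10 with 37.4% positive. By limma's test over all clusters (two-sided, adjusted p under 0.05), 5 members (7.25%) rose and none fell, against 2.82% of all clusters that rose and 3.34% that fell. Among the brightest clusters 5.85% rose and 10.3% fell. At an unadjusted p under 0.05, 27 members were higher and 1, Ndufa7, was lower. Of all 33323 clusters 2963 were higher and 4014 lower at that threshold, and of the 8331 brightest 1140 and 2533. In 22 members (31.9%) every beating array lay above every non-beating array, against 5.98% of all clusters and 9.91% of the brightest. The reverse held for Ndufa7 alone, against 8.24% of all clusters. Nothing states that samples within a group had separate animals as sources, so the p-values measure the spread between these samples. In such mixed cultures fewer cells of a type and less RNA per cell cannot be told apart.

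**Figure D2:**
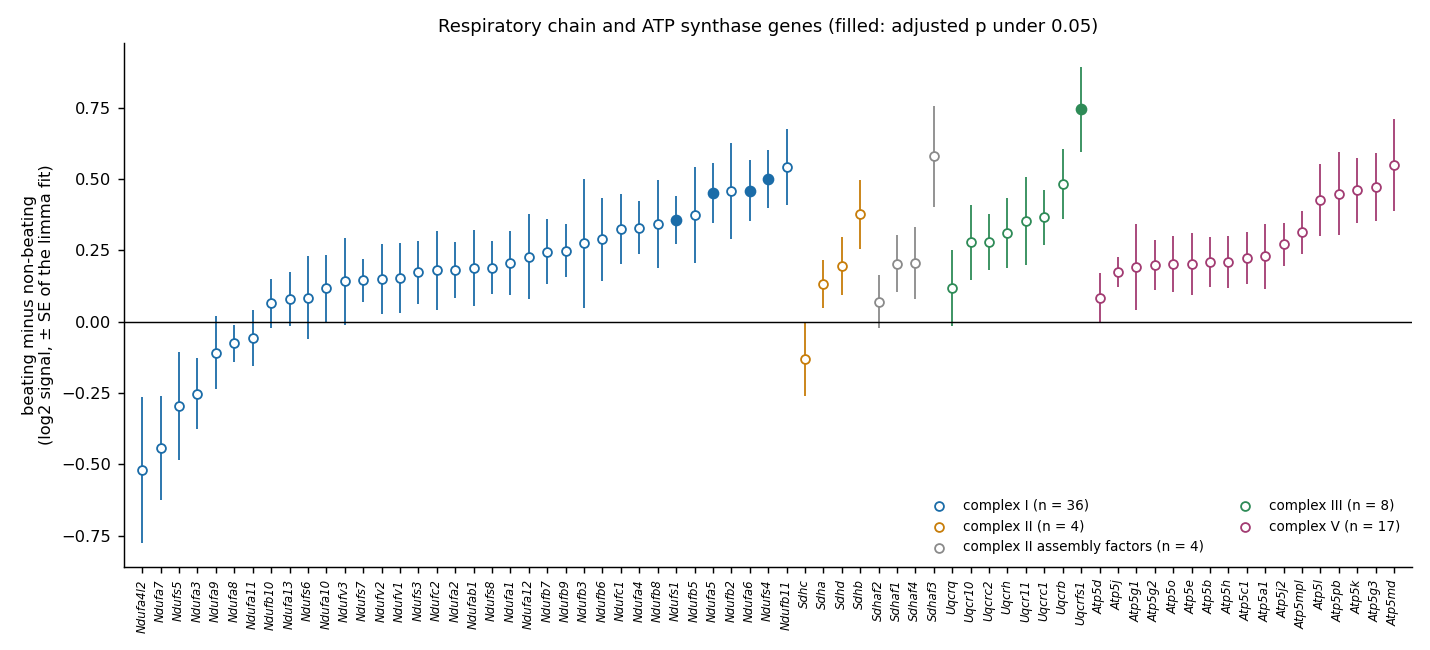
Difference of the group means (beating minus non-beating, log2 signal) with the standard error of the limma fit for each of the 69 members, ordered by complex and size, n = 4 arrays per group. All 8 complex III and all 17 complex V points lie above 0, and the 5 filled points passed the test.

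The 5 genes that passed were 4 of complex I and 1 of complex III. Uqcrfs1 encodes the Rieske iron-sulphur protein of complex III. Its signals were 8.30, 7.96, 7.64 and 7.76 on beating arrays 1 to 4 and 7.30, 7.08, 7.30 and 6.99 on the non-beating arrays. The groups did not overlap, and the gap between them was narrowest at beating array 3. The difference was 0.75 (SE 0.15), at 7.92 ± 0.29 against 7.17 ± 0.16 (SD, n = 4 each, limma adjusted p = 0.0275), the largest of any member.

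Ndufs4, an accessory subunit of the complex I matrix arm whose loss causes Leigh-like disease, read 9.80, 9.77, 9.49 and 9.42 on the beating arrays and 9.21, 9.11, 9.13 and 9.03 on the non-beating arrays. Beating arrays 1 and 2 stood above arrays 3 and 4, and all 4 above every non-beating array. It was higher by 0.50 (SE 0.10, limma adjusted p = 0.0281). Ndufa6, an accessory subunit of the same arm, read 8.78, 8.83, 8.45 and 8.40 against 8.15, 8.11, 8.16 and 8.19, the same division of the beating arrays. Its difference was 0.46 (SE 0.11, limma adjusted p = 0.0443).

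Ndufa5, another accessory subunit of the matrix arm, read 8.73, 8.36, 8.35 and 8.28 on the beating arrays and 7.87, 8.01, 8.03 and 8.01 on the non-beating arrays. Only beating array 1 stood apart from its group upwards, and the groups did not overlap (difference 0.45, SE 0.10, limma adjusted p = 0.0447). Ndufs1, the large core subunit that carries iron-sulphur clusters, read 6.14, 6.12, 5.88 and 6.26 against 5.68, 5.81, 5.74 and 5.75. Here array 4 was the highest and array 3 lay close to the non-beating range (difference 0.36, SE 0.08, limma adjusted p = 0.0492). None of the 5 calls was made without beating array 2, nor without any single non-beating array, though the differences stayed between 0.30 and 0.84 across the arrays left out. Without beating array 3 or array 4, 4 of the 5 passed in each case, and without array 1, Ndufa5 and Uqcrfs1 passed. Median centring left 2 calls (Ndufs4 and Uqcrfs1), quantile normalization gave 12, and the methods' t-test with adjustment gave none. Over all clusters 837, 956 and 491 rose in these settings, in that order.

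**Figure D3:**
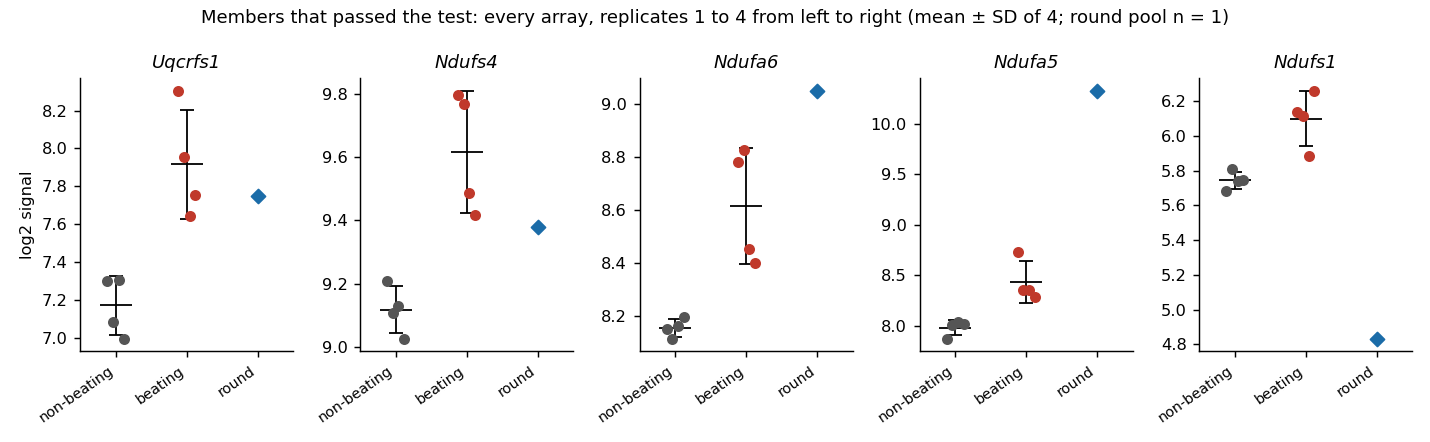
Log2 signal of the 5 members that passed the test, each point 1 array, in the non-beating (n = 4), beating (n = 4) and round (n = 1) groups, with bars at the mean ± SD of 4. The beating points lie above all non-beating points in each panel, and the round pool lies above both groups for Ndufa6 and Ndufa5 and below both for Ndufs1.

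Of the 6 complex I core subunits measured here, 1 passed the test (Ndufs1), and all 6 means were higher in the beating group, with a median difference of 0.16. Of 28 accessory subunits 3 passed, 22 means were higher and 6 lower, with a median of 0.20. Of all clusters 2.82% rose past the threshold and 51.9% were positive, and of the brightest 5.85% and 37.4%. The difference between core and accessory subunits was not tested. Ndufb11, a membrane arm subunit, had the largest difference of the complex. It read 9.69, 9.70, 9.17 and 9.24 on the beating arrays and between 8.89 and 8.92 on the non-beating arrays. The difference of 0.54 (SE 0.13) missed the threshold (limma adjusted p = 0.0525), and its other cluster gave 0.21. Ndufs7, the core subunit that passes electrons on towards ubiquinone, differed by 0.15 (SE 0.08, limma adjusted p = 0.330).

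A few complex I genes lay the other way, and none of them passed. Ndufa7 read 6.94, 6.91, 6.49 and 6.11 on the beating arrays and 7.08, 7.21, 6.96 and 6.97 on the non-beating arrays. All 4 beating values lay below the non-beating ones, those of arrays 3 and 4 by most (difference -0.44, SE 0.18, limma adjusted p = 0.219). Ndufs5 and Ndufa3 had differences of -0.30 and -0.25, and for both, beating array 1 lay within the non-beating range. Ndufs5 shares sequence with a near copy, so its value is uncertain.

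Ndufa4 and Ndufa4l2, close paralogues of which the second is a hypoxia-induced gene, had mean differences of opposite sign, and neither passed. Ndufa4 read 11.27, 11.20, 10.96 and 10.89 on the beating arrays and 10.80, 10.76, 10.76 and 10.67 on the non-beating arrays, without overlap (difference 0.33, SE 0.09, limma adjusted p = 0.0861). Ndufa4l2 read 5.01, 4.69, 4.65 and 4.45 against 6.01, 4.93, 4.89 and 5.04. Its non-beating array 1 stood far above the other three, and the difference of -0.52 (SE 0.26) did not pass (limma adjusted p = 0.300) and was -0.26 without that array. The difference between both genes was not tested. Hif1a, the oxygen-regulated factor among 13 listed regulators of respiratory genes, fell by 0.78 on the log2 scale (limma adjusted p = 0.00445). Any link between this fall and the Ndufa4l2 value was not tested.

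Complex II, which also serves the citric acid cycle, had the smallest number of genes and no call. Sdhb, its iron-sulphur subunit, read 7.41, 7.24, 6.92 and 7.01 in beating and 6.79, 6.84, 6.59 and 6.86 in non-beating cells. The groups did not overlap (difference 0.38, SE 0.12, limma adjusted p = 0.118). Sdhc, a membrane anchor, read 6.43, 6.90, 6.77 and 6.77 against 7.12, 6.87, 6.71 and 6.68, with the groups interleaved (difference -0.13, SE 0.13, limma adjusted p = 0.642). The assembly factors Sdhaf1 to Sdhaf4 were all higher by 0.07 to 0.58, none past the threshold.

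All 8 complex III genes were higher in the beating group, with a median difference of 0.33. Behind Uqcrfs1 came Uqcrb, a ubiquinone-binding subunit, at 0.48 (SE 0.12, limma adjusted p = 0.0589) and without overlap. The core proteins Uqcrc1 and Uqcrc2 differed by 0.37 and 0.28. Uqcrq, a small subunit, had the lowest value of the complex, 0.12 (SE 0.13, limma adjusted p = 0.685). Cytochrome c1 (Cyc1), the partner of the Rieske protein whose symbol lies outside the rule, showed a difference of 0.00 (SE 0.10). Somatic cytochrome c (Cycs), which carries electrons from complex III, read 10.16, 10.18, 9.46 and 9.54 against 8.86, 9.09, 9.08 and 9.38, without overlap (difference 0.73, SE 0.20, limma adjusted p = 0.0720).

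All 17 complex V genes were higher as well, with a median of 0.22. None passed limma's adjusted threshold, while 11 had an unadjusted p under 0.05. At that unadjusted threshold 1140 of the 8331 brightest clusters were higher and 2533 lower. In 10 of the 17 genes (58.8%) every beating array lay above every non-beating array, against 5.98% of all clusters and 9.91% of the brightest. The F1 head (5 genes), the peripheral stalk (4) and the c ring (3) had medians of 0.21, 0.21 and 0.20. The other 5 membrane genes, Atp5j2, Atp5k, Atp5l, Atp5md and Atp5mpl, had a median of 0.43 and all 5 were without overlap. Atp5md, a small membrane subunit, had the largest difference of the complex. It read 11.47, 11.43, 10.97 and 10.82 on the beating arrays and 10.48, 10.55, 10.64 and 10.82 on the non-beating arrays. Beating array 4 all but touched non-beating array 4 (difference 0.55, SE 0.16, limma adjusted p = 0.0915), and the 3 clusters of the gene gave 0.55 to 0.57. Atp5d, the delta subunit of the head, differed least, by 0.08 (SE 0.09, limma adjusted p = 0.660).

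The c subunit is encoded by Atp5g1, Atp5g2 and Atp5g3, which yield the same mature protein. Atp5g3 read 10.10, 9.81, 9.57 and 9.61 on the beating arrays and 9.41, 9.23, 9.29 and 9.27 on the non-beating arrays, without overlap (difference 0.47, SE 0.12, limma adjusted p = 0.0596). Atp5g1 read 7.32, 7.02, 6.56 and 6.75 against 6.65, 6.75, 6.74 and 6.74. Beating array 1 was high and array 3 below every non-beating array (difference 0.19, SE 0.15, limma adjusted p = 0.539). Atp5g2 differed by 0.20 (SE 0.09, limma adjusted p = 0.247), with overlap. A test of the difference between the 3 genes was not made, and their signals come from different probes.

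The beating arrays were not alike for these genes. The median deviation of the 69 members from their non-beating means was 0.45, 0.30, 0.06 and 0.11 on beating arrays 1 to 4, and between -0.01 and 0.04 on the non-beating arrays. Beating array 1 held the highest beating value in 53 of the 69 genes, array 2 in 7, array 3 in none and array 4 in 9. Of the 8331 brightest clusters these arrays held the highest beating value in 2111, 2175, 1642 and 2403. Of all 33323 clusters, array 1 did so in 11895. Complex V was the least uneven, at 0.46, 0.30, 0.16 and 0.22. The median spread within a group was an SD of 0.22 in beating and 0.08 in non-beating samples. Over the brightest 25% of clusters these medians were 0.23 and 0.13. With beating arrays 1 and 2 both left out, a choice made after seeing the data, 51 of 69 members were still positive with a median of 0.08, Ndufb11 rose and Ndufa7 fell past the threshold, and none of the 5 genes passed. The mean of 6 endothelial markers was 3.74, 5.25, 5.78 and 6.20 on beating arrays 1 to 4 and 4.92 to 6.20 on non-beating arrays, so that it was lowest on arrays 1 and 2, as was the mean of the macrophage markers. The mean of 8 fibroblast markers was 7.59 to 8.04 on beating and 8.30 to 8.90 on non-beating arrays, and that of 8 adipocyte markers 4.02 to 4.38 and 4.84 to 5.18. The part of these cells in the result was not tested. The skeletal muscle markers were highest on array 1 too (9.92), with arrays 2, 3 and 4 at 9.59, 9.59 and 9.73.

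**Figure D4:**
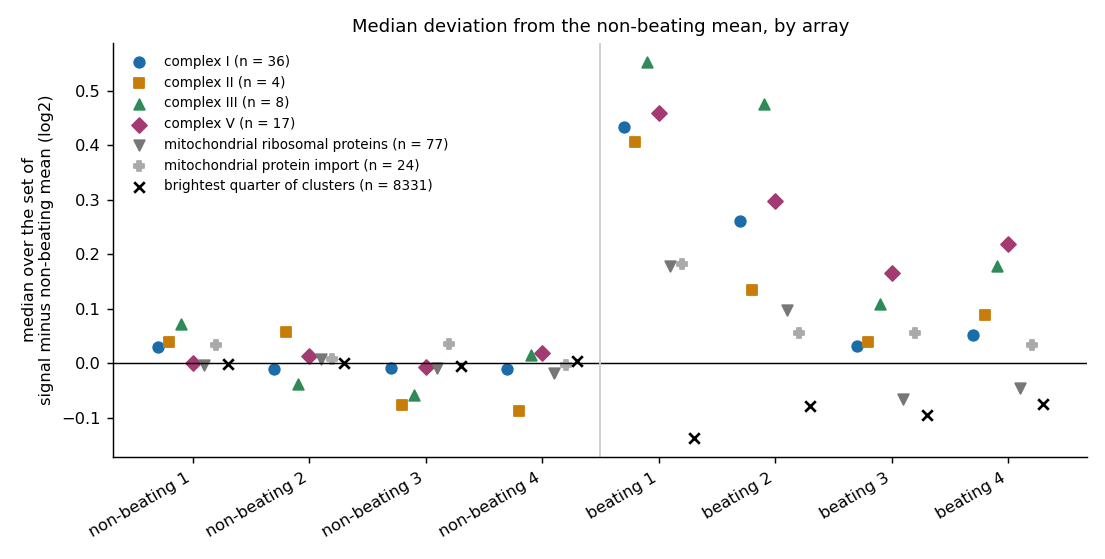
Median over each gene set of the signal minus the gene's mean on the 4 non-beating arrays (log2), for every beating and non-beating array. The complexes lie highest on beating array 1 and array 2, while the brightest clusters of the array lie below 0 on all 4 beating arrays.

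Lists of other mitochondrial genes held no call in the higher direction. At an unadjusted p under 0.05 in limma's test, 1140 of the 8331 brightest clusters were higher and 2533 lower. Over all 33323 clusters the counts were 2963 and 4014. Of 77 mitochondrial ribosomal proteins none passed limma's test in either direction (unadjusted p under 0.05, 10 higher and 6 lower), 41 were higher and the median difference was 0.03. Of 24 genes of the Tomm and Timm protein import machinery none passed (3 higher and 1 lower unadjusted), with a median of 0.12. Of 22 assembly factors of complexes I, III and V none passed (5 higher and 1 lower unadjusted), with a median of 0.06. Of 12 carriers, inhibitors and uncouplers none passed (1 higher unadjusted), with Vdac1, the outer membrane channel, at 0.58 (SE 0.14, limma adjusted p = 0.0559) and Atpif1, the inhibitor of ATP synthase, at 0.04. Of 5 genes listed as cytochrome c1, cytochrome c or subunits under other symbols none passed (3 higher unadjusted), with a median of 0.31, but Atp5md and Atp5mpl among them are also members. Among the 13 regulators only Hif1a passed. Gabpa, which encodes the ETS factor whose core letters were searched, had a difference of -0.64 (limma adjusted p = 0.0893), and Ppargc1a, the coactivator of mitochondrial biogenesis, 0.42 (SE 0.32, limma adjusted p = 0.523). The differences between these lists and the members were not tested. The 6 sarcomere and calcium-store markers shared by heart and skeletal muscle had a median difference of 6.08 on the same scale.

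The 14 members with several clusters allowed a check of the rows. Their clusters differed by 0.01 (Ndufc1) to 0.43 (Uqcr11, at 0.35 and -0.07), and the 6 clusters of Atp5l gave 0.40 to 0.45. Clusters of 1 gene can share sequence with its processed copies, so they are not independent. No cluster of these 14 genes passed the test.

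In the round pool most respiratory genes were dimmer than on the other arrays as deposited, but other scalings changed this. Its median difference from the non-beating mean was -0.49 over the 69 members and -0.65 from the beating mean. In 40 of the 69 members the pool lay below all 8 other arrays, and in 9 above all 8. The pool lay above all 8 in 920 of the 8331 brightest clusters and in 15475 of all 33323 clusters. Over the brightest 25% of clusters the median difference from non-beating was -1.29 and 72.7% lay below all 8 arrays, against 0.22 and 24.4% over all clusters, so the spread of signals over the whole array differed for this pool. Centring on array medians moved the members' median to -0.94, and quantile normalization turned it to 0.34, with 19 of 69 genes changing direction. The direction for the members as a set was therefore not settled.

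Ndufa5 above all 8 arrays, and Uqcrh, Atp5e and Uqcr10 below them, kept that place under both scalings. Ndufa5 was at 10.33 in the round pool, 2.35 above the non-beating mean and 1.90 above the beating mean. Ndufa13, a complex I subunit also known as GRIM-19, was at 6.28 and Ndufs7 at 6.42, both above all 8 arrays by less, and no longer so after median centring. At the other end Uqcrh, the acidic hinge protein of complex III, was at 7.00 against 10.2 in beating and 9.88 in non-beating cells. Atp5e, the epsilon subunit of ATP synthase, was at 7.24 (difference from non-beating -2.82), and Uqcr10, a small subunit of complex III, at 6.79 (difference -2.03). By complex, the median difference from non-beating was -0.62 for complex I, -0.80 for complex II, -0.64 for complex III and 0.00 for complex V. Within complex V the 5 small membrane genes named above were all higher than the non-beating mean, Atp5k by 1.05 and Atp5l by 0.87, and 2 of the 5 were so after median centring. The pool held 6 cells amplified from very little RNA, and counting and amplification error cannot be estimated from 1 array.

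**Figure D5:**
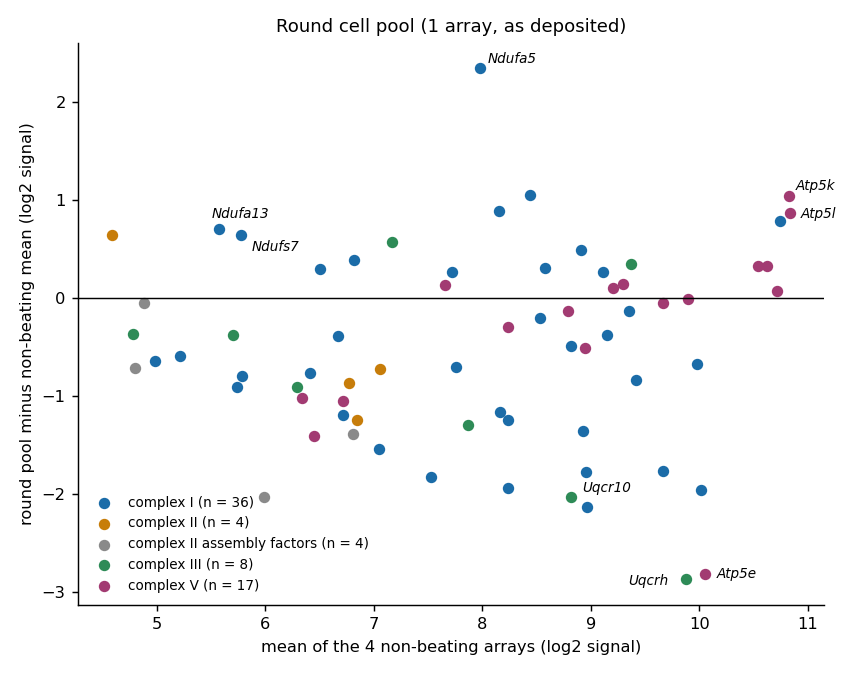
Round pool minus the mean of the 4 non-beating arrays (log2 signal, as deposited, 1 array) against that non-beating mean for each of the 69 members, coloured by complex. Ndufa5 lies 2.35 above 0, Uqcrh and Atp5e lie lowest, and the brightest complex V genes lie above 0.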

How the data were processed

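Gene expression was measured on 9 Affymetrix Mouse Gene 1.0 ST arrays (4 beating, 4 non-beating, 1 round). The authors deposited log2 signals for 33323 transcript clusters. Their methods describe log2 scaling and normalisation in BRB-ArrayTools, and how this table was summarised is not given in the sources used here. The values were used as deposited. Clusters were named from the platform annotation, 21789 with 1 symbol, 1621 with several and 9913 with none, and all 69 members matched GRCm38.p6 by gene number. A gene with several clusters was represented by the one with the highest mean over the 8 arrays. The test between the 2 groups was limma's moderated test (version 3.58.1, R 4.3.3; lmFit, then eBayes; two-sided), with Benjamini-Hochberg adjustment over every cluster, and was checked on simulated data. The members, gene lists and tests were chosen with earlier results of these data known. Genes named are every member that passed and the highest and lowest difference of each complex. They include the 3 members furthest above and the 3 furthest below all 8 arrays in the round pool. Ndufa4, Ndufa4l2, Atp5g1 to Atp5g3 and, outside the members, the called regulator Hif1a are named too. Called genes of the marker lists are not named, and those lists are given as means or medians. Further genes with a value in the text were picked after their values were seen. None of the 10 listed mitochondrially encoded subunits had a cluster of 1 symbol here. Alternatives covered normalization, filters, variance model, array weights, the methods' t-test, replicate number as a block, how clusters stand for a gene, and each array left out. The number of arrays limits the precision.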

Additional observations from a re-analysis of the deposited data

Results flagged for a closer look

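Over the 69 members, 138 groups of 4 arrays were tested for 1 array that stands apart from the other three by Dixon's test, with the gap given as a share of the group's range. It was found in 11 groups (7.97%), 2 of beating and 9 of non-beating samples, where chance gives about 1 in 20. Ndufa4l2 in non-beating samples had a gap of 0.867, with replicate 1 at 6.01 against 4.89 to 5.04. Atp5a1 in non-beating samples had 0.876 and Sdhaf1 0.939, both with replicate 4 lowest, at 7.32 and 6.65. Uqcr11 had 0.895 in non-beating samples, with replicate 3 lowest at 5.47. Ndufa5 had 0.835 in beating samples, with replicate 1 highest at 8.73, and 0.842 in non-beating samples, with replicate 1 lowest at 7.87. Ndufa2 had 0.950 in beating samples, with replicate 1 highest at 8.91. The other groups were narrow non-beating ones, Atp5g1 (0.898), Ndufb7 (0.959), and Ndufb10 and Sdhaf4 (1 each, the other three arrays holding the same deposited value).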

How the results depend on the processing

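The median difference of the members stayed positive in all alternatives run, between 0.14 and 0.26 with 1 array left out. With beating arrays 1 and 2 both left out, a setting added after seeing the data, it moved to 0.0806. In that setting 1 member was higher and 1 lower, and of all clusters 834 rose and 619 fell. The number of members that rose was 2 after median centring, 12 after quantile normalization and 11 with dim clusters left out. It was 1 with the 1.5-fold prefilter, which tests 15 members, and 2 with replicate number as a block. Of all 33323 clusters 837 rose after median centring, 956 after quantile normalization and 637 with the block. With dim clusters left out 1079 of 16755 clusters rose, and with the prefilter 902 of 7976. The methods' t-test called 0 members after adjustment (23 higher at an unadjusted p under 0.05) and 0 at p under 0.0001 with the prefilter. Over all clusters it gave 491 higher and 375 lower, and 195 and 26. With 1 array left out, 0 to 9 members rose, and over all clusters 569 to 914 rose and 438 to 1023 fell. No member rose without beating replicate 2 or without any 1 non-beating replicate, where 21 to 23 were higher at an unadjusted p under 0.05. Without beating replicates 1, 3 and 4, the members that rose numbered 2, 7 and 9. Shares of all clusters at that unadjusted threshold are not given here for these settings or for the methods' t-test. No pairing by replicate number was seen in the correlations of same-numbered deviations (-0.01 to 0.03). Such correlations do not show that same-numbered samples came from separate dishes. The block gave 645 clusters lower.
In the round pool, median centring moved the members' median difference to -0.94 from non-beating and -1.05 from beating cells, and turned Atp5g3 (-0.31), Atp5md (-0.12) and Ndufs4 (-0.19) against non-beating cells. Quantile normalization turned the medians to 0.34 and 0.0674, and turned Atp5g1 (0.0638), Sdhb (0.29) and Uqcrq (0.12) against non-beating and Atp5g3 (0.19), Atp5md (0.0513), Ndufa4l2 (0.42), Ndufb11 (0.49), Ndufs4 (0.31) and Uqcrfs1 (0.75) against beating cells. The cause was not tested.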
